A study of Homo sapiens with 6 samples.

Results

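Ephrins and their Eph receptors, and semaphorins and their plexin and neuropilin receptors, were examined in KYSE70 cells and in NRF2null-KYSE70 cells. Genes were taken by symbol, namely EPHA and EPHB receptors, EFNA and EFNB ligands, SEMA3 to SEMA7 semaphorins, PLXNA to PLXND plexins, and NRP1 and NRP2, and 53 of the 58884 genes in the table met this rule. The rule used symbols and no expression values, but the families were chosen with earlier results of these data known. Of these 53 genes, 43 reached a mean of 10 normalized counts across the libraries and were tested, among 15994 tested genes. KYSE70 is a human cell line from an esophageal squamous cell carcinoma, and its NFE2L2 gene, which encodes the transcription factor NRF2, is mutated. NRF2null-KYSE70 was made from KYSE70 with CRISPR-Cas9 and a guide directed at NFE2L2, and was grown from 1 clone. RNA was sequenced from 3 libraries of each line, and all cells were untreated and grown in RPMI1640 medium. The libraries are named replicates, but whether they came from separate cultures was not given, so p-values measure only the spread between these libraries, and the comparison is that of 1 edited clone with the line it came from.

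Eph receptors are receptor tyrosine kinases that bind ephrins on the surface of a neighbouring cell, and signals pass into both the receptor-bearing and the ligand-bearing cell. Ephrin-A ligands are held on the membrane by a lipid anchor and ephrin-B ligands span it. Semaphorins are secreted or membrane-bound ligands of plexins, and the secreted class 3 members need a neuropilin beside the plexin in most cases. These families were first described in axon guidance, and in squamous epithelium they are known for cell sorting, adhesion and migration.

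Libraries held between 52072801 and 63975313 reads assigned to genes, recovered from the normalized counts. The targeted gene NFE2L2 (chromosome 2, 177218667 to 177392756, hg38 like all gene positions here) had normalized counts of 9839, 9906 and 10040 in KYSE70 and 5803, 6041 and 6434 in NRF2null-KYSE70, or 61.4% of the parental mean (log2 fold change -0.71, SE 0.050, limma adjusted p = 9.37e-08). The direction was that of the labels, and most of the NFE2L2 RNA remained, although an RNA level does not measure loss of the protein. The paper reports a frameshift with a premature stop codon in NRF2null-KYSE70 and significantly lower expression of a set of NRF2 target genes. It also reports a faint, smaller NRF2 protein band in NRF2null-KYSE70 and states that NRF2 was not fully abolished there. NRF2null-KYSE70 library 1 stood apart from the other libraries of its line (chi-square per degree of freedom 23.0 and 23.4, against 4.59 to 12.5 for all other pairs of a line) and had the highest counts of EPHA2, SEMA3A, SEMA6B, PLXNA1 and NRP2. Without it their log2 fold changes, described below, were 1.61, 2.75, 1.27, 1.19 and 2.15, all past the threshold. All 10 squamous epithelial markers were detected, and their summed normalized counts were 343484 to 350003 in KYSE70 and 254603 to 265142 in NRF2null-KYSE70. The markers went both ways at an adjusted p under 0.05, with KRT5 (means of 209917 and 124640), TP63, SFN, DSG3 and PKP1 lower, and KRT6A, KRT14, KRT17, CDH1 and EPCAM higher, of which KRT14 was past the threshold described below (log2 fold change 1.74). The summed counts of 6 neuronal markers were 65.8 to 114 and 16.2 to 78.4, with GAP43 and ELAVL4 close to 0. Those of 4 endothelial markers were 137 to 159 and 293 to 499, carried by VWF and TEK, with no more than 1 read for PECAM1 and CDH5 in any library. Those of 5 fibroblast markers were 1172 to 1336 and 479 to 627, nearly all COL1A1, with no read for DCN or COL1A2, while PDGFRB had no read in KYSE70 and 12.2, 14.7 and 16.0 normalized counts in NRF2null-KYSE70. Those of 4 leukocyte markers were 0 to 6.33 and 42.2 to 58.2, mostly PTPRC. The part of other cell types in the results was not tested, and in bulk RNA fewer cells of a type and less RNA per cell cannot be told apart.

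A gene was past the threshold when limma, run on log2(normalized count + 1), gave it an adjusted p under 0.05 and its log2 fold change was 1 or more in size. Of the 43 guidance genes tested, 11 (25.6%) were past it, where the share over all tested genes was 14.7%. In NRF2null-KYSE70, 6 were higher (14.0%, against 7.23% of all genes) and 5 were lower (11.6%, against 7.43%). Higher were the receptor genes EPHA2, PLXNA1 and NRP2 and the ligand genes SEMA3A, SEMA6B and SEMA7A. Lower were the receptor genes EPHA4, EPHA5 and PLXNA2 and the ligand genes SEMA3B and SEMA3D. Without the fold cut-off, 28 genes (65.1%, against 57.6% of all genes) had an adjusted p under 0.05, 14 in each direction. Without overlap between the libraries of the lines, 15 genes were higher and 14 were lower, where 63.4% of all tested genes had no overlap. The median log2 fold change of the guidance genes was -0.03 and that of all genes was -0.01, while the median absolute log2 fold change was 0.72 against 0.36. No test of these shares was made, because members of a family are not replicates. The families were chosen with earlier results of these data known, so the shares cannot be read as enrichment.

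**Figure D1:**
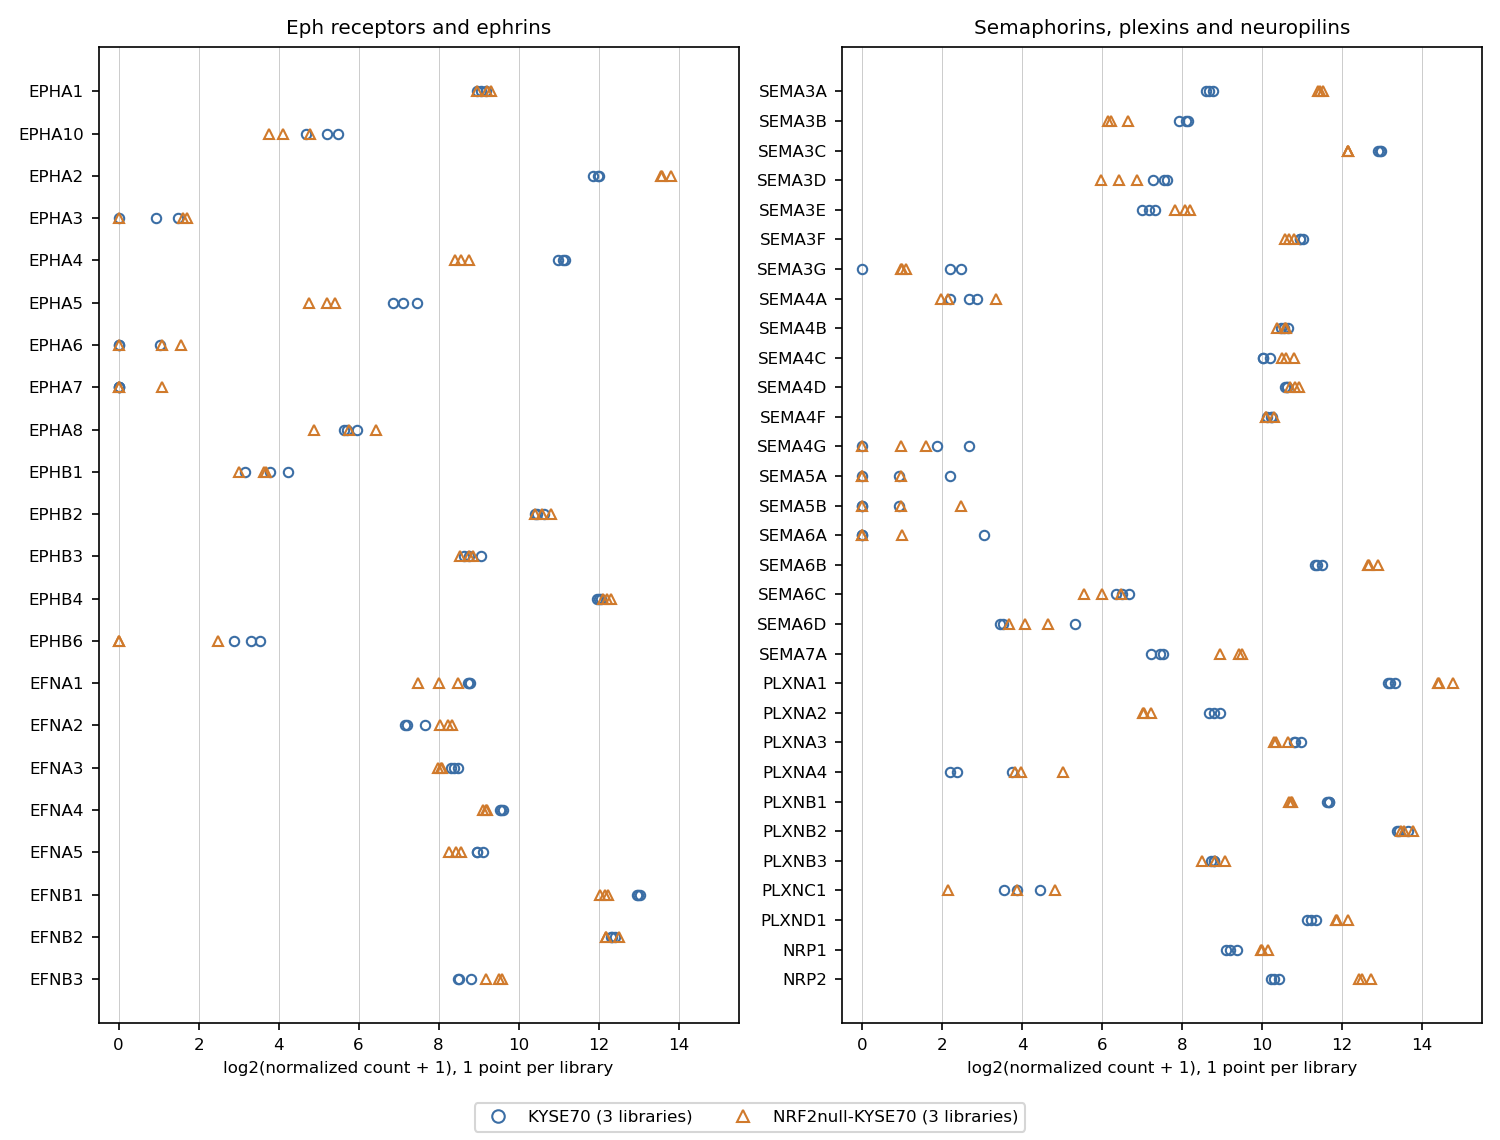
Expression of all 53 guidance genes, with log2(normalized count + 1) on the horizontal axis and 1 point per library (circles, KYSE70; triangles, NRF2null-KYSE70). SEMA3A, NRP2, EPHA2 and SEMA7A were clearly higher and EPHA4, EPHA5, PLXNA2 and SEMA3B clearly lower in all 3 NRF2null-KYSE70 libraries, and 3 genes (EPHA3, EPHA6 and EPHA7) were at or under 3 reads in every library.

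NRF2 acts on promoters through the antioxidant response element (ARE), whose core can be written TGACNNNGC. This core was searched on both strands in RefSeq promoters (GRCh38.p14, 250 bases before to 50 after each gene start), without asking for any other motif. Of 47 guidance genes with a promoter entry, 8 (17.0%) held a match, as did 16.1% of the 27305 genes with promoters. Counted by window, the shares were 10.8% of 74 and 13.3% of 35116. Among genes past the threshold, 4 higher genes had entries and 0 held a match, and 1 of 5 lower genes, SEMA3B, held a match. A match is a description of the letters and not a binding site. Below are the matches in genes that were lower in NRF2null-KYSE70 at an adjusted p under 0.05, with 10 bases on each side. These were picked by direction, and a role of NRF2 at these genes was not tested. The other matches were in EFNB2, PLXNA4 and SEMA6D, which did not pass, and in EPHA7, which was under the filter. Sequences read 5′ to 3′ on the strand of the gene, and capitals mark the core.
EFNA1 (chromosome 1, from 19 bases after the start): agcccagcgcTGACTGCGCcgcggagaaa
EFNA4 (chromosome 1, 45 bases before the start): ttattcagggGCGGGGTCAgtgaatctcc
EFNA5 (chromosome 5, 118 bases before the start): caactcccggTGACTGTGCagcgcgcgcc
SEMA3B (chromosome 3, 118 bases before the start): ccggctgcctGCCCGGTCAcccgatccgc

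For comparison, the 250 bases before the start are given for SEMA3B, the only gene past the threshold with a match, and for EPHA2, the most abundant Eph receptor per kilobase of exon, which was higher in NRF2null-KYSE70 and held none. SEMA3B has 5 RefSeq promoter windows and the match was in 1 of them. The G and C bases made up 68.8% of the SEMA3B window shown and 63.2% of that of EPHA2.
SEMA3B (chr3:50267402-50267651, plus strand): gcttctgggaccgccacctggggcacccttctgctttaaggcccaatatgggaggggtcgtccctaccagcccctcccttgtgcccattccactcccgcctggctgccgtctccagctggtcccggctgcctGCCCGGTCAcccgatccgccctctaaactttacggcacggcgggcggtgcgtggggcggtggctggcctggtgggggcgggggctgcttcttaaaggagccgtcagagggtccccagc
EPHA2 (chr1:16156070-16156319, minus strand): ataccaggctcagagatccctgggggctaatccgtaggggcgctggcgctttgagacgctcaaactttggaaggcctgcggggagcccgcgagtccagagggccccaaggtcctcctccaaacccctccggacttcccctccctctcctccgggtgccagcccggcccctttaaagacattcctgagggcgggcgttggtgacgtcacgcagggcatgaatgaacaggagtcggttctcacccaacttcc

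Of the 10 Eph receptors tested, 1 rose and 2 fell past the threshold (30.0%, against 14.7% of all genes). All 3 were of the A class, where 6 genes were tested, and a difference between classes was not tested. EPHA2 (ENSG00000142627), a receptor that is abundant in epithelia and binds ephrin-A1, had normalized counts of 4155, 3723 and 4059 in KYSE70 and 14406, 12317 and 12037 in NRF2null-KYSE70. Every NRF2null-KYSE70 library was well above every KYSE70 library. The means were 3979 ± 227 and 12920 ± 1294 (SD, n = 3), a ratio of 3.25 and a log2 fold change of 1.70 (SE 0.069, adjusted p = 6.58e-10, limma). EPHA2 lies on chromosome 1 from 16124337 to 16156069.

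EPHA4 (ENSG00000116106; chromosome 2, 221418027 to 221574202) binds ephrins of both classes. Its normalized counts were 2219, 2302 and 2025 in KYSE70 and 377, 341 and 429 in NRF2null-KYSE70, so the lines were far apart. The means were 2182 ± 142 and 383 ± 44.2 (SD, n = 3), or 17.5% of the parental mean, and the log2 fold change was -2.51 (SE 0.095, adjusted p = 3.48e-10, limma). EPHA5 (ENSG00000145242; chromosome 4, 65319563 to 65670495), known mainly from neurons, was expressed at a much lower level. It had 175, 115 and 136 normalized counts in KYSE70 and 41.6, 36.3 and 26.3 in NRF2null-KYSE70, without overlap (log2 fold change -2.01, SE 0.26, limma adjusted p = 2.68e-05). Long noncoding genes on the opposite strand shared 353 exon bases with EPHA4 and 535 with EPHA5, and also 1822 with EFNB2, 561 with NRP1 and 147 with NRP2. Whether the counting used strand was not stated, so reads of such pairs cannot be told apart.

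None of the 4 EphB receptors tested was past the threshold, where the share over all genes was 14.7%. So few genes do not set the class apart from other genes. EPHB4, the receptor of ephrin-B2 and the most abundant B receptor per kilobase of exon, had normalized counts of 4232, 3955 and 4141 in KYSE70 and 5061, 4416 and 4699 in NRF2null-KYSE70. This was a ratio of 1.15 (log2 fold change 0.20, SE 0.059, limma adjusted p = 0.0108), and the adjusted p was 0.661 after the median of its chromosome arm was subtracted. For EPHB2, EPHB3 and EPHA1 the 95% intervals of the log2 fold change were -0.11 to 0.31, -0.40 to 0.18 and -0.15 to 0.33, and adjusted p was 0.405, 0.513 and 0.49. EPHA8, EPHB1 and EPHA10, the last of these a receptor without an active kinase, had means of 10.1 to 55.6 normalized counts and wide intervals, and did not pass. EPHB6, also without an active kinase, was under the filter with 27 reads over the KYSE70 libraries and 4 over the NRF2null-KYSE70 libraries, and passed the threshold when no filter was used (log2 fold change -2.41, limma adjusted p = 0.0257). EPHA3, EPHA6 and EPHA7 had at most 3 reads in each library of both lines.

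The makeup of the Eph receptors therefore differed between the lines. Summed over the EphA genes, normalized counts per kilobase of exon were 1393 ± 56.1 in KYSE70 (SD, n = 3) and 3309 ± 318 in NRF2null-KYSE70 (n = 3), a ratio of 2.38. EPHA2 made up 69.0% ± 1.39 of this sum in KYSE70 and 94.3% ± 0.659 in NRF2null-KYSE70, and EPHA4 20.8% ± 1.89 and 1.54% ± 0.251 (SD, n = 3). The EphB sum was 859 ± 42.0 and 955 ± 73.7, with EPHB4 at 74.3% and 76.9% of it. These sums follow from the genes above and are given without a test, since an exact permutation of 3 libraries against 3 cannot go below 0.10.

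None of the 8 ephrins tested passed the threshold, where the share over all genes was 14.7%. An adjusted p under 0.05 was found for 7 of them (87.5%, against 57.6% of all genes), 5 lower and 2 higher in NRF2null-KYSE70. EFNB1, the most abundant ephrin, had normalized counts of 8450, 7951 and 8077 in KYSE70 and 4802, 4190 and 4537 in NRF2null-KYSE70. All libraries of the edited line were thus well under those of the parent. The means were 8159 ± 259 and 4509 ± 307 (SD, n = 3), or 55.3%, and the log2 fold change was -0.86 (SE 0.057, adjusted p = 5.39e-08, limma), just under the fold cut-off. EFNA1, the main ligand of EPHA2, had 442, 434 and 422 normalized counts in KYSE70 and 255, 177 and 357 in NRF2null-KYSE70. Its level was lower in each NRF2null-KYSE70 library, although these spread widely (60.7% of the parental mean, log2 fold change -0.78, SE 0.20, limma adjusted p = 0.00487). EFNA5, EFNA4 and EFNA3 were at 66.4%, 75.7% and 78.4% of the parental mean, with limma adjusted p of 6.01e-04, 0.00112 and 0.0232. That of EFNA3 was 0.05 or more under 4 alternatives (up to 0.0851), and that of EFNA1 was 0.0519 under limma without the trend.

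In the other direction, EFNA2 had 148, 200 and 141 normalized counts in KYSE70 and 261, 323 and 301 in NRF2null-KYSE70 (log2 fold change 0.86, SE 0.17, limma adjusted p = 6.56e-04). EFNB3 had 445, 364 and 357 in KYSE70 and 722, 583 and 765 in NRF2null-KYSE70 (log2 fold change 0.82, SE 0.13, limma adjusted p = 1.03e-04). Neither pair of groups overlapped, and both genes were just under the fold cut-off. EFNB2, the ligand of EPHB4, had means of 5223 ± 173 and 5053 ± 638 (SD, n = 3), and the interval of its log2 fold change was -0.22 to 0.11 (adjusted p = 0.558). Ephrin counts per kilobase summed to 4766 ± 140 in KYSE70 (SD, n = 3) and 3483 ± 226 in NRF2null-KYSE70 (n = 3), a ratio of 0.731, with EFNB1 at 51.8% and 39.2% of the sum and EFNB2 at 21.9% and 28.9%. Summed Eph receptors, in contrast, had a ratio of 1.89, and this rise was carried by EPHA2. Per kilobase, EPHA2 had means of 961 in KYSE70 and 3120 in NRF2null-KYSE70, where all Eph receptors summed to 2252 and 4264. EFNA3 and EFNA4 share 853 and 189 exon bases with the readthrough gene EFNA4-EFNA3, so their counts may be split with it.

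**Figure D2:**
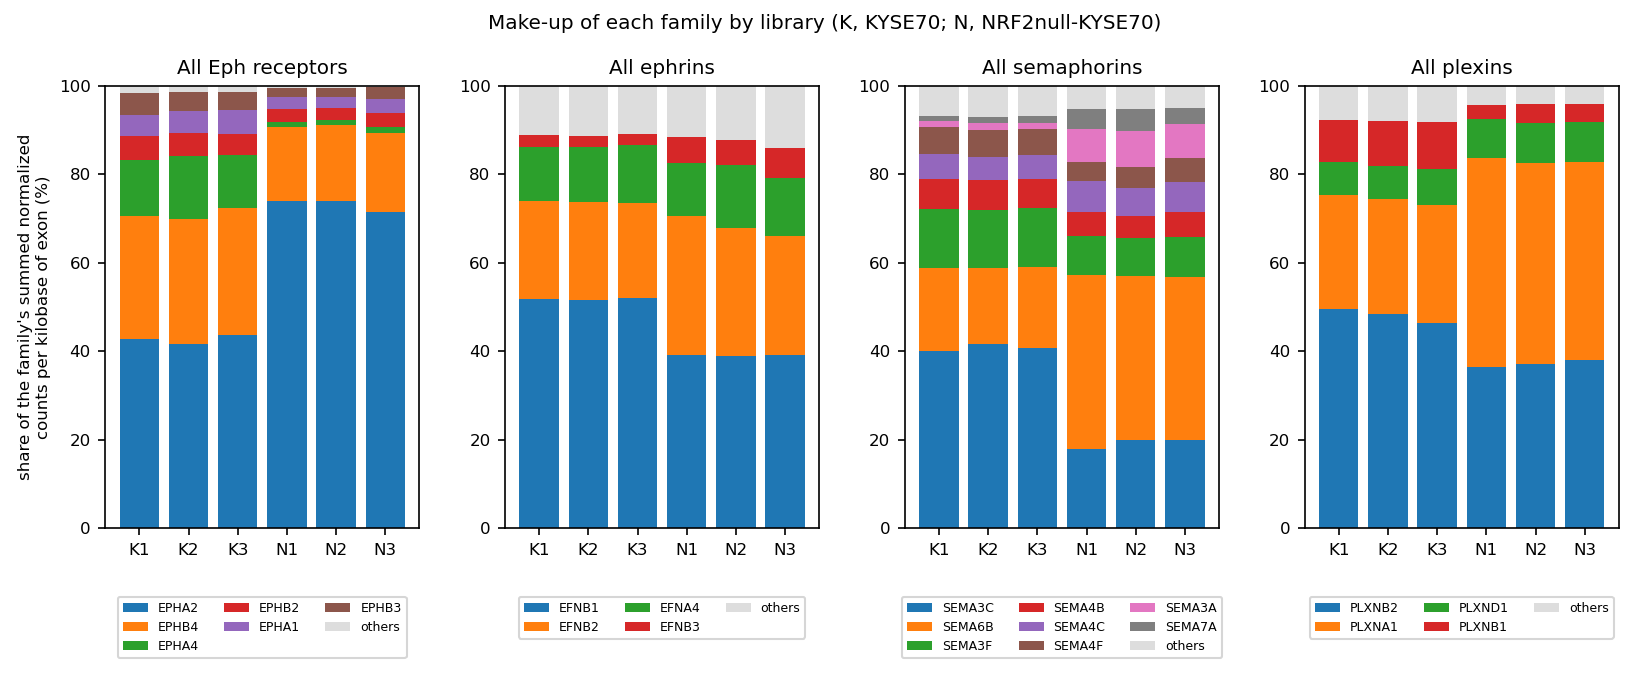
Share of each gene in its family in each library, as a percent of the family's summed normalized counts per kilobase of exon (K1 to K3, KYSE70; N1 to N3, NRF2null-KYSE70). EPHA2 rose from 42.7% to 73.1% of all Eph receptors, SEMA6B from 18.1% to 37.7% of all semaphorins and PLXNA1 from 26.2% to 45.9% of all plexins, and EFNB1 and SEMA3C took smaller shares in NRF2null-KYSE70.

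All 6 class 3 semaphorins tested had an adjusted p under 0.05, as did 57.6% of all genes, but they did not move one way. SEMA3A (ENSG00000075213; chromosome 7, 83955777 to 84492724), the classical repellent of axons, showed the largest log2 fold change of the 43 genes. Its normalized counts were 435, 406 and 388 in KYSE70 and 2933, 2816 and 2694 in NRF2null-KYSE70. The lines were widely separated, with means of 410 ± 23.6 and 2815 ± 120 (SD, n = 3), a ratio of 6.87 and a log2 fold change of 2.78 (SE 0.075, adjusted p = 1.81e-11, limma). SEMA3E, which binds PLXND1 without a neuropilin, was higher as well, with 128, 160 and 143 normalized counts in KYSE70 and 292, 271 and 227 in NRF2null-KYSE70. It stayed under the fold cut-off (log2 fold change 0.87, SE 0.16, limma adjusted p = 4.38e-04).

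SEMA3C was by far the most abundant class 3 member and was lower. Its normalized counts were 8081, 7944 and 7654 in KYSE70 and 4545, 4554 and 4557 in NRF2null-KYSE70, or 57.7% of the parental mean (log2 fold change -0.79, SE 0.046, limma adjusted p = 1.62e-08). The NRF2null-KYSE70 libraries were nearly equal to each other. SEMA3B (ENSG00000012171; chromosome 3, 50267558 to 50277546), whose promoter match is printed above, had 272, 282 and 244 normalized counts in KYSE70 and 70.0, 99.0 and 74.2 in NRF2null-KYSE70 (log2 fold change -1.72, SE 0.18, limma adjusted p = 4.18e-06). SEMA3D (ENSG00000153993; chromosome 7, 84995553 to 85187056) had 198, 153 and 186 in KYSE70 and 117, 61.8 and 84.5 in NRF2null-KYSE70 (log2 fold change -1.06, SE 0.23, limma adjusted p = 0.00169). It was just past the fold cut-off, and fell short of it at -0.98 without KYSE70 library 1 and at -0.84 without NRF2null-KYSE70 library 2. SEMA3F was at 81.2% of the parental mean (log2 fold change -0.30, limma adjusted p = 0.00228), but turned to 0.18 (adjusted p = 0.0397) when the median of its chromosome arm was subtracted. SEMA3G had 9 reads over the KYSE70 libraries and 3 over the NRF2null-KYSE70 libraries.

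Per kilobase of exon, the class 3 genes summed to 1841 ± 50.6 in KYSE70 (SD, n = 3) and 1446 ± 38.8 in NRF2null-KYSE70 (n = 3). SEMA3C took 70.3% of this sum in KYSE70 and 51.6% in NRF2null-KYSE70, and SEMA3A 2.40% and 21.0%. The total of the secreted class was therefore lower while its share of SEMA3A was higher.

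Among the membrane-bound semaphorins, SEMA6B and SEMA7A passed the threshold. SEMA6B (ENSG00000167680; chromosome 19, 4542593 to 4581776), a transmembrane ligand of A plexins, had normalized counts of 2904, 2557 and 2640 in KYSE70 and 7664, 6519 and 6472 in NRF2null-KYSE70. The means were 2700 ± 181 and 6885 ± 675 (SD, n = 3), a ratio of 2.55 and a log2 fold change of 1.35 (SE 0.072, adjusted p = 7.87e-09, limma). SEMA7A (ENSG00000138623; chromosome 15, 74409289 to 74433958), which is anchored by a lipid and binds PLXNC1 and beta1 integrins, had 149, 174 and 183 in KYSE70 and 690, 729 and 492 in NRF2null-KYSE70. Its ratio was 3.77 and its log2 fold change 1.89 (SE 0.16, adjusted p = 4.53e-07, limma). Both genes were higher in every NRF2null-KYSE70 library.

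The class 4 semaphorins, known for signals through B plexins, had no gene past the threshold among 4 tested, where the share over all genes was 14.7%. SEMA4C was higher at a ratio of 1.48 (log2 fold change 0.56, SE 0.087, limma adjusted p = 1.23e-04), and SEMA4D, the ligand of PLXNB1, at 1.16 (log2 fold change 0.21, SE 0.070, limma adjusted p = 0.0219). The adjusted p of SEMA4D reached 0.0746 when a library was left out. SEMA4B and SEMA4F had intervals of -0.20 to 0.13 and -0.20 to 0.14 for the log2 fold change and did not pass. SEMA6C and SEMA6D did not pass either, at means of 17.4 to 90.4 normalized counts. SEMA4A, SEMA4G, SEMA5A, SEMA5B and SEMA6A were under the filter, with between 1 and 16 reads per line in all. Over all semaphorins, counts per kilobase summed to 3166 ± 114 and 3868 ± 238 (SD, n = 3), and the gene with the highest share was SEMA3C at 40.9% in KYSE70 and SEMA6B at 37.7% in NRF2null-KYSE70.

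Both neuropilins, the co-receptors of class 3 semaphorins and of vascular endothelial growth factor, were higher in NRF2null-KYSE70. NRP2 (ENSG00000118257; chromosome 2, 205681990 to 205798133) had normalized counts of 1386, 1254 and 1191 in KYSE70 and 6773, 5821 and 5474 in NRF2null-KYSE70. The means were 1277 ± 99.5 and 6023 ± 673 (SD, n = 3), a ratio of 4.72 and a log2 fold change of 2.23 (SE 0.081, adjusted p = 2.45e-10, limma). NRP1, the receptor subunit for SEMA3A, had 663, 583 and 544 in KYSE70 and 1127, 1013 and 1019 in NRF2null-KYSE70, and was under the fold cut-off (log2 fold change 0.82, SE 0.093, limma adjusted p = 8.21e-06). Neither gene overlapped between the lines. NRP2 made up 64.0% of neuropilin counts per kilobase in KYSE70 and 82.5% in NRF2null-KYSE70. Neuropilins are also abundant in endothelium, and the endothelial marker VWF was higher in NRF2null-KYSE70 (275 to 449 normalized counts, against 133 to 149), as was TEK (means of 32.3 and 7.13, log2 fold change 2.22, limma adjusted p = 0.0076), while PECAM1 and CDH5 were at 0 or 1 read in each library.

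Plexins are the signalling receptors of semaphorins. Of the 9 tested, 1 rose and 1 fell past the threshold (22.2%, against 14.7% of all genes), both of the A class. PLXNA1 (ENSG00000114554; chromosome 3, 126982693 to 127037389) had normalized counts of 10298, 9152 and 9373 in KYSE70 and 28205, 21662 and 22037 in NRF2null-KYSE70. All libraries of the edited line were above the parental ones, with library 1 the highest (ratio of means 2.49, log2 fold change 1.31, SE 0.086, limma adjusted p = 5.37e-08). PLXNA2 (ENSG00000076356; chromosome 1, 208022242 to 208244384) had 495, 409 and 448 in KYSE70 and 129, 149 and 132 in NRF2null-KYSE70. It was at 30.3% of the parental mean (log2 fold change -1.71, SE 0.14, limma adjusted p = 2.93e-07). PLXNA3 was at 74.4% (log2 fold change -0.43, limma adjusted p = 0.00114). PLXNA4 was close to the detection limit, with 12.5, 3.63 and 4.22 normalized counts in KYSE70 and 13.2, 31.4 and 14.8 in NRF2null-KYSE70, and just missed the threshold (log2 fold change 1.50, SE 0.60, limma adjusted p = 0.0502).

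PLXNB1, the receptor of SEMA4D, was lower and just under the fold cut-off. Its normalized counts were 3274, 3163 and 3277 in KYSE70 and 1641, 1703 and 1707 in NRF2null-KYSE70 (log2 fold change -0.94, SE 0.055, limma adjusted p = 1.63e-08). PLXND1, the receptor of SEMA3E, had 2592, 2244 and 2391 in KYSE70 and 4524, 3660 and 3742 in NRF2null-KYSE70 (log2 fold change 0.72, SE 0.082, limma adjusted p = 8.12e-06). PLXNB2, the plexin with the highest level per kilobase in KYSE70, did not pass, with means of 11460 ± 1183 and 12534 ± 1344 (SD, n = 3) and an interval of -0.05 to 0.30. PLXNB3 and PLXNC1 did not pass either. PLXNB3 shares 1432 exon bases with SRPK3 on the same strand, and PLXNC1 had means of 15.1 and 14.8 normalized counts. PLXNA1 took 26.2% of the plexin counts per kilobase in KYSE70 and 45.9% in NRF2null-KYSE70.

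Only some known ligand and receptor pairs are given here, and they did not move in 1 way. SEMA3A, NRP1 and PLXNA1, which form a ligand and receptor complex, had log2 fold changes of 2.78, 0.82 and 1.31. SEMA3E and PLXND1 had 0.87 and 0.72. The signs were opposite for EFNA1 and EPHA2, at -0.78 and 1.70, for SEMA3B and NRP2, at -1.72 and 2.23, and for SEMA4D and PLXNB1, at 0.21 and -0.94. These signs depend on the receptor picked for each ligand. EPHA4, which binds ephrins of both classes, was at -2.51, the sign of EFNA1 and the opposite of that of EFNA2 (0.86). EFNB2 and EPHB4 had -0.05 and 0.20, and SEMA7A and PLXNC1 1.89 and -0.34, of which PLXNC1 had few reads and did not pass. These are log2 fold changes of RNA, and protein at the cell surface was not measured.

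**Figure D3:**
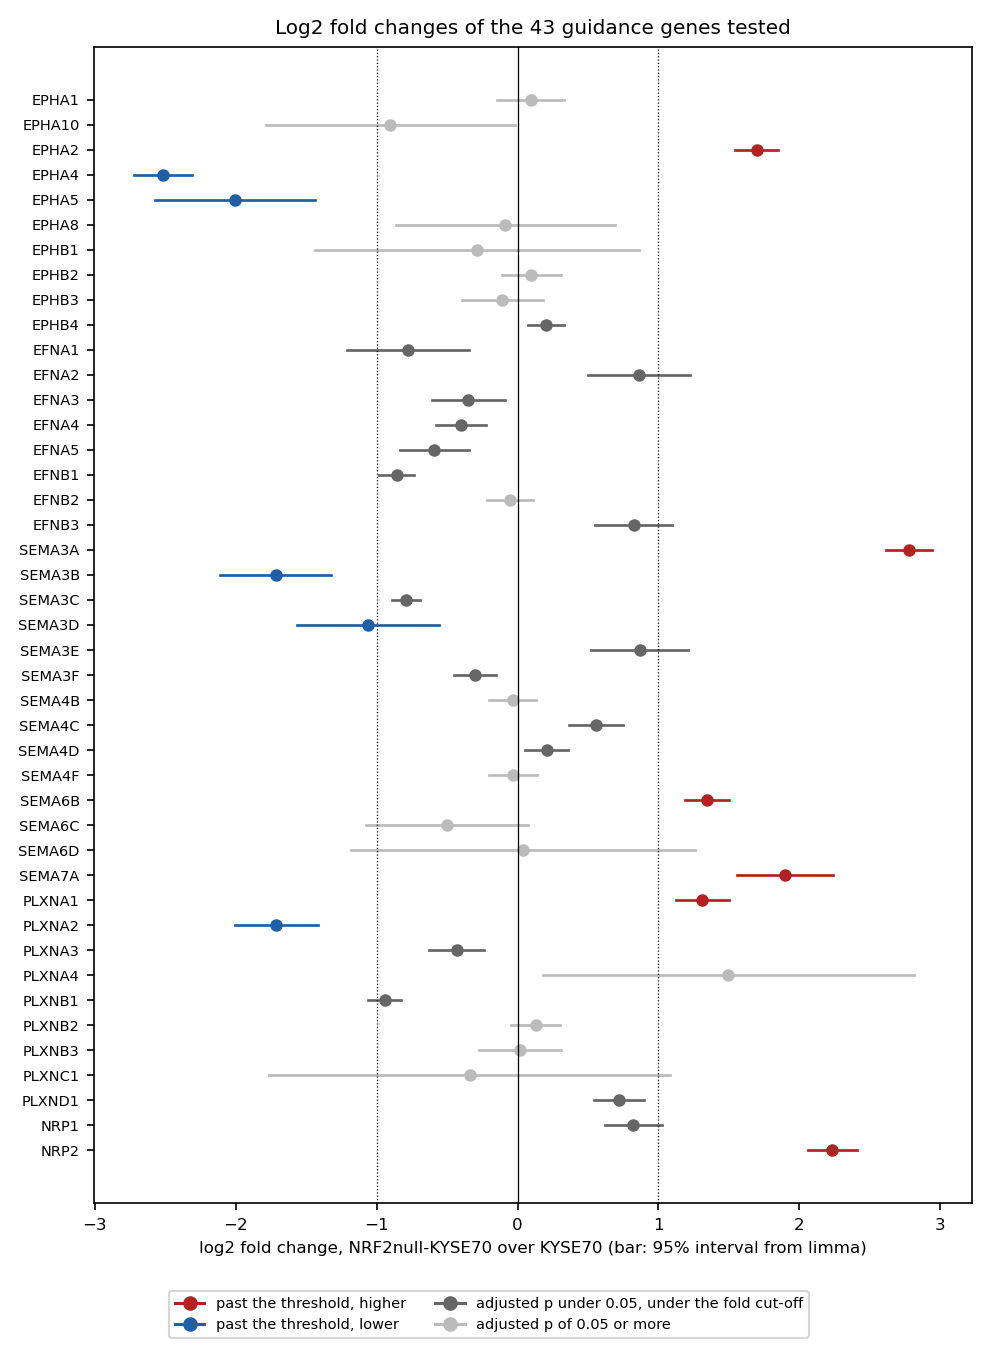
Log2 fold change of each of the 43 tested guidance genes, NRF2null-KYSE70 over KYSE70 and computed from log2(normalized count + 1), with the 95% interval from limma as a bar and the fold cut-off as dotted lines. The 6 genes past the threshold on the right reach 2.78 (SEMA3A) and the 5 on the left reach -2.51 (EPHA4), and 7 of the genes with an adjusted p under 0.05 lie between 0.8 and 1.2 in absolute value.

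The genes nearest the cut-off among those with an adjusted p under 0.05 were SEMA3D just inside it at -1.06 and PLXNB1, SEMA3E, EFNA2, EFNB1, EFNB3 and NRP1 just outside it. The count of 11 therefore rests in part on where the cut-off was drawn.

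Fold changes were next set beside those of neighbouring genes, because the arms of the chromosomes differed in their median log2 fold change. For each gene, the median over up to 20 expressed protein-coding genes on each side was taken. On 3p the arm median was -0.48, and PLXNB1, SEMA3B and SEMA3F, which lie there, had neighbour medians of -0.63, -0.64 and -0.64. With the arm median subtracted, SEMA3B remained past the threshold at -1.24 (limma adjusted p = 5.85e-05), PLXNB1 was at -0.46 and SEMA3F turned to 0.18 (limma adjusted p = 0.0397). On 3q, where the arm median was 0.28, PLXNA1 remained just past the threshold at 1.03, and PLXND1 was at 0.44. The neighbour median of PLXNA1 was higher than that of the arm, at 0.45, and its log2 fold change of 1.31 less this value lies under the fold cut-off. On 15q, with an arm median of 0.33, SEMA7A was at 1.57. The other 8 genes past the threshold had arm medians between -0.04 and 0.17 in log2 fold change. All 11 genes past the threshold remained past it after this subtraction.

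A cluster of class 3 genes lies on 7q, in the order SEMA3C, SEMA3E, SEMA3A and SEMA3D, across 4445 kilobases. Their log2 fold changes were -0.79, 0.87, 2.78 and -1.06, so the inner genes were higher and the outer genes were lower. SEMA3A lies 307 kilobases from SEMA3E and 503 kilobases from SEMA3D, with no protein-coding gene between in either case. The neighbour medians of these genes were 0.27 to 0.35. This shift, common to the region, was smaller than the differences between the inner and the outer genes.

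**Figure D4:**
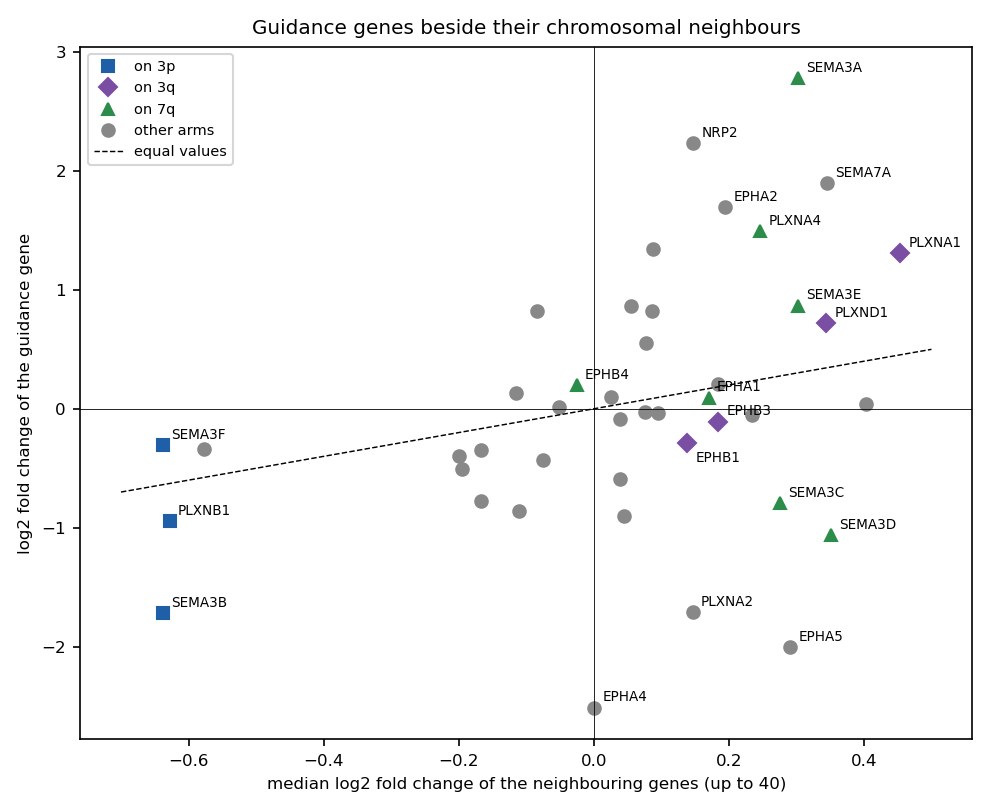
Log2 fold change of each tested guidance gene (vertical axis) against the median log2 fold change of its neighbouring genes (horizontal axis), with the line of equal values dashed. The 3p genes (squares) lie at neighbour medians near -0.64, and 4 of the 7q genes (green triangles), the SEMA3 cluster, spread from -1.06 to 2.78 at neighbour medians of 0.27 to 0.35.

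Partners and effectors of the Eph pathway were taken from a list of 28 genes, of which 26 were tested. Past the threshold were 4 higher and 4 lower genes (30.8% in all), and 13 higher and 8 lower genes had an adjusted p under 0.05. Lower were the scaffold of ephrin-B tails GRIP1 (180, 189 and 212 normalized counts in KYSE70 and 10.1, 14.7 and 7.99 in NRF2null-KYSE70, log2 fold change -4.06), the guanine nucleotide exchange factors KALRN (-2.59) and VAV3 (-1.47), and the Rac GTPase-activating protein CHN1 (-1.94), which acts downstream of EPHA4. VAV3 was the most abundant of these, with 6615, 7199 and 6687 normalized counts in KYSE70 and 2139, 2573 and 2738 in NRF2null-KYSE70. Higher were the adaptor GRB7 (1.86, with 12.5 to 18.1 normalized counts in KYSE70 and 38.2 to 79.1 in NRF2null-KYSE70), the kinases FYN (1.18) and ABL2 (1.23), and ADAM10 (1.25), the protease that sheds ephrins. ADAM10, at 7632 to 8312 normalized counts in KYSE70 and 18113 to 20805 in NRF2null-KYSE70, lies on 15q and was at 0.92 with the arm median subtracted.

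Of 28 partners and effectors of the semaphorin pathway, 24 were tested, and 4 higher and 3 lower genes were past the threshold (29.2% in all), with 11 and 5 at an adjusted p under 0.05. Lower were CRMP1, DPYSL2 and DPYSL4, which belong to the collapsin response mediator proteins that carry the SEMA3A signal to the cytoskeleton, at log2 fold changes of -1.20, -1.58 and -1.53. DPYSL2 had 9734, 9775 and 9671 normalized counts in KYSE70 and 3369, 3092 and 3279 in NRF2null-KYSE70, without overlap. DPYSL5 and DPYSL3, of the same family, did not pass. Their means in KYSE70 and NRF2null-KYSE70 were 2202 and 2110 for DPYSL5 (limma adjusted p = 0.485). Those of DPYSL3 were 25.7 and 16.3 (limma adjusted p = 0.393). Higher were MICAL2 (1.39), a member of the MICAL family of actin-oxidizing enzymes, RANBP9 (1.12), and the receptor tyrosine kinases MET (1.64) and MST1R (1.51), which associate with B plexins. MET had 8011, 7828 and 7492 normalized counts in KYSE70 and 26910, 23473 and 22338 in NRF2null-KYSE70. The vascular endothelial growth factor receptors KDR and FLT1 were not expressed beyond a few reads.

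Of 14 netrin and repulsive guidance molecule (RGM) genes, 9 were tested, and 2 were higher and 1 was lower past the threshold (33.3% in all), with 5 and 2 at an adjusted p under 0.05. NTNG2, a membrane-anchored netrin, had 242, 269 and 222 normalized counts in KYSE70 and 718, 646 and 713 in NRF2null-KYSE70 (log2 fold change 1.50, SE 0.11, limma adjusted p = 1.64e-07). UNC5A, a netrin receptor, had 2.67, 9.07 and 16.9 against 33.5, 33.3 and 51.4 (log2 fold change 2.18, SE 0.56, limma adjusted p = 0.00494). RGMA was lower, with 1284, 1144 and 1000 in KYSE70 and 441, 363 and 332 in NRF2null-KYSE70 (log2 fold change -1.59, SE 0.12, limma adjusted p = 2.11e-07). UNC5C, named here after its values were seen, had no read in KYSE70 and 19.3, 18.6 and 17.1 normalized counts in NRF2null-KYSE70, under the filter. UNC5B, also named after its values were seen, was the most abundant of the listed UNC5 genes and was lower. Its means were 2114 in KYSE70 and 1241 in NRF2null-KYSE70 (log2 fold change -0.77, limma adjusted p = 1.85e-05), under the fold cut-off. The shares past the threshold in these 3 lists stand beside 14.7% of all genes. Those at an adjusted p under 0.05 (80.8%, 66.7% and 77.8%) stand beside 57.6%. The lists were written with earlier results of these data known and none was tested as a set, so these shares cannot be read as enrichment.

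**Figure D5:**
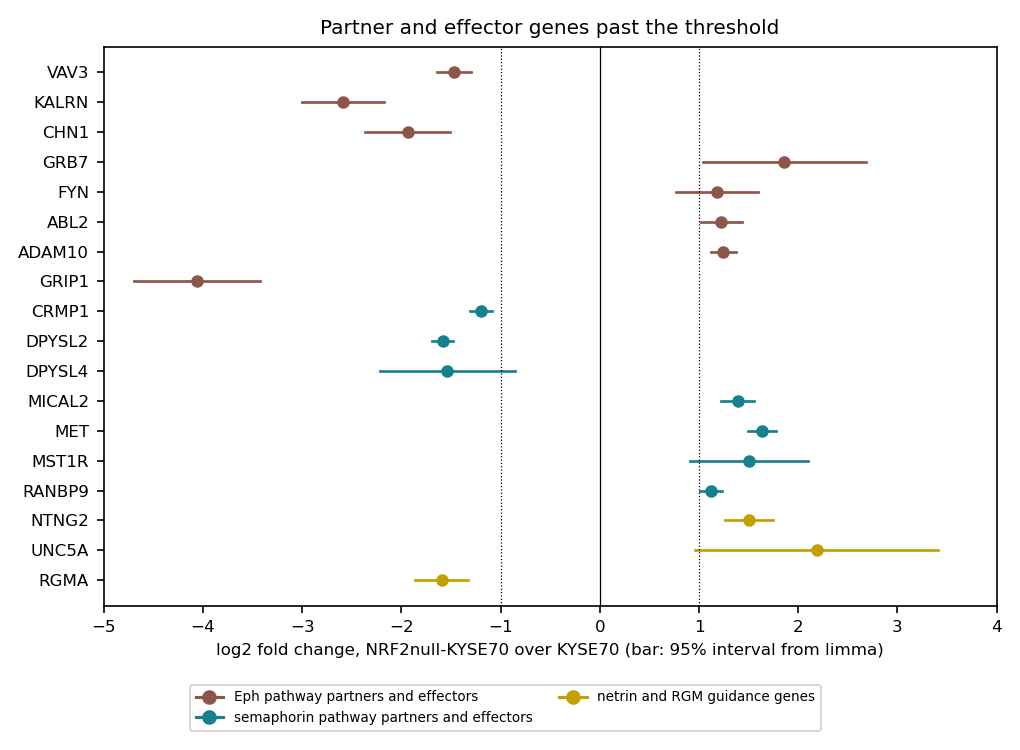
Log2 fold change of the 18 partner, effector and netrin or RGM genes past the threshold, NRF2null-KYSE70 over KYSE70, with the 95% interval from limma as a bar. The values run from -4.06 (GRIP1) to 2.18 (UNC5A), with 10 genes higher and 8 lower.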

How the data were processed

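RNA-seq libraries of KYSE70 and NRF2null-KYSE70 (n = 3 each) were analysed from a table of normalized counts. According to the methods, the labels' processing notes and the table itself, the authors trimmed reads (cutadapt 1.12), checked quality (FastQC 0.11.5), aligned to hg38 (STAR 2.6.90c), counted per gene (featureCounts 1.5.1) and divided by DESeq2 size factors. The deposited values are thus a signal in normalized counts, 1 value per gene and library. Strand and multi-mapped reads were not stated, and the annotation is named as RefSeq although identifiers are Ensembl.

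All values (100%) were whole multiples, within 0.01, of the value of 1 read, so reads were recovered. On these, DESeq2 (1.42.0) called 2341 genes and edgeR (4.0.16) 2350, and the main test called 2344. The main test was limma (3.58.1, R 4.3.3; lmFit, eBayes with trend) on log2(normalized count + 1), two-sided, with Benjamini-Hochberg adjustment over 15994 genes with a mean of at least 10. Fold changes on this scale understate the change of low genes. The limma fit was tested on simulated data. Gene positions and exon lengths, for levels per kilobase, came from GENCODE v44. Lengths were those of the merged exons of all annotated transcripts of a gene. Levels and shares per kilobase therefore depend on the annotation and not on the transcripts expressed. Medians over arms and neighbours left out noncoding genes and means under 50. At 3 reads or fewer in each library a gene was taken as not detected. Counting intervals were not needed, and all intervals are limma's. Same-line libraries differed by more than sampling noise (chi-square per degree of freedom 23.0 and 23.4 for NRF2null-KYSE70 library 1 against the others of its line, and 4.59 to 12.5 for the other pairs), so each counted as 1, numbered by its order in the table within a line.

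Members, lists and tests were chosen with earlier results of these data known. Named were genes past the threshold, the highest per family, those at an absolute log2 fold change of 0.8 to 1.2, and listed partners past the threshold, and other members were given by counts, ranges or beside a known partner. Alternatives were 2 other pseudocounts (0.1 and 5), 2 other filters, quantile, TMM and total scaling, limma without trend or robust, DESeq2, edgeR, no fold cut-off, arm-centring (subtraction of the arm's median log2 fold change) and each library left out.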

Additional observations from a re-analysis of the deposited data

How the results depend on the processing

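The count of guidance genes past the threshold was 11 or 12 under every alternative that kept the fold cut-off, including each library left out (11 to 12, with 6 to 7 higher and 4 to 6 lower). With no fold cut-off it was 28, 14 higher and 14 lower. Of the 11 genes, 10 were past the threshold under every alternative, and SEMA3D was at -0.96 with quantile normalization and at -0.98 to -0.84 in the leave-one-out fits in which it was lost. PLXNA4 passed with edgeR (1.52), TMM scaling (1.49), quantile normalization (1.64), a pseudocount of 5 (1.08) and 2 leave-one-out fits. PLXNB1 passed with total scaling (-1.02), EFNA2 without KYSE70 library 2 (1.02), EPHA10 without NRF2null-KYSE70 library 2 (-1.18) and EFNA1 without NRF2null-KYSE70 library 3 (-1.03), and ADAM10 was lost with arm-centring (0.92). The median of all genes moved by -0.08 with total scaling.

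Of 28 genes with an adjusted p under 0.05, 27 kept their direction in all 18 other fits, and SEMA3F was at 0.18 with arm-centring. The adjusted p rose to 0.05 or more for EFNA1 (0.0519, limma without the trend), EPHB4 (up to 0.661, arm-centring, total scaling, no trend, and without KYSE70 library 2), EFNA3 (up to 0.0851, quantile normalization and without library 1 or 3 of KYSE70 or 2 of NRF2null-KYSE70) and SEMA4D (up to 0.116, total scaling, no trend, and without library 2 or 3 of KYSE70 or 1 or 3 of NRF2null-KYSE70). Only genes that did not pass turned otherwise. These were EPHA8 (0.033 with quantile normalization, 0.0427 with DESeq2 and 0.043 with edgeR), SEMA6D (-0.0335 with total scaling, -0.205 with DESeq2, -0.211 with edgeR, -0.291 with arm-centring), PLXNB3 (-0.0586 with total scaling), EPHA1 (-0.0726 with arm-centring) and PLXNC1 (0.0386 with arm-centring). With a library left out, values ran from -0.456 to 0.317 for EPHA8, -0.0036 to 0.192 for EPHB2, -0.198 to 0.0147 for EPHB3, -0.0786 to 0.0338 for SEMA4B, -0.0978 to 0.0086 for SEMA4F, -0.287 to 0.648 for SEMA6D, -0.119 to 0.163 for PLXNB3 and -0.945 to 0.396 for PLXNC1. The cause of these changes was not tested. Matches of the ARE core were in 8 promoters, or 6 with the 250 bases before the start.

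No paired analysis was possible because library columns are named by line alone, with no replicate number. The results rest on 1 clone, so variation between clones was not measured, and low genes (PLXNA4, PLXNC1, SEMA6D, EPHB1) were limited by depth.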
